A study of Aspergillus nidulans with 6 samples.

Results

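The F9775 gene cluster of Aspergillus nidulans directs the synthesis of orsellinic acid and of the yellow polyketides F9775A and F9775B. A polyketide synthase joins small acyl units into an aromatic product, and the enzymes encoded beside it in the genome modify that product. In laboratory culture such fungal clusters are often silent, and their genes tend to be switched on together. The F9775 cluster is known for staying silent in axenic culture and for its activation by contact with certain streptomycetes or by changes in chromatin modification.

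The 4 genes described here are the rows ANIA_07909, ANIA_07911, ANIA_07912 and ANIA_07914 of the deposited table, which holds 1375 genes. They were taken by their locus number. ANIA_07909, of 6312 bases, is annotated as a putative polyketide synthase. The annotation gives only conserved hypothetical protein for ANIA_07911 (996 bases), ANIA_07912 (1110 bases) and ANIA_07914 (1047 bases). In the gene order of the assembly ASM1142v1 they stand in this sequence with ANIA_07913 between ANIA_07912 and ANIA_07914. ANIA_07910 and ANIA_07913 were not analysed here. The study uses the names orsA, orsB and orsC for genes of this cluster, but neither the deposited table nor the assembly pairs them with a locus, so the loci are named here by number. It reported these genes among those higher in celAΔ in the RNA-Seq. It also reported upregulation in celAΔ by RT-qPCR for genes of F9775A and F9775B synthesis. The RT-qPCR was not analysed here.

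RNA-Seq libraries were made from the mycelium of celAΔ (3 cultures) and of the control strain SAA.111 (3 cultures). In celAΔ the whole celA locus (ANIA_08444), which encodes a putative mixed linkage glucan synthase, was to be replaced by the argB marker. The deposit describes these libraries both as a deletion and as a downregulation of celA. Both strains share the background veA1, biA1, ΔargB::trpC, riboB2, pyroA4 and wA3, so celAΔ also differs from the control by a working argB, and all celAΔ cultures descend from a single stable transformant. The cultures were grown in liquid minimal medium with 0.4% glucose and 10 mM ammonium tartrate for 3 days at 37 °C. The 3 days are those of the study's methods, whereas its results text names a later time point for the RNA-Seq. For each gene and library, the table gives unique gene reads and RPKM (reads divided by gene length and library depth). It lists genes that the authors had selected for a difference between the same 6 libraries, so every difference between the strains below has passed that selection and is not independent evidence.

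The mapped totals numbered 4176645 to 5205011 reads in celAΔ and 3300251 to 3706233 reads in the control. celA had 33, 38 and 36 reads in celAΔ replicates 1, 2 and 3, against 198, 197 and 111 in control replicates 1, 2 and 3. argB had 8150, 15329 and 11624 reads in celAΔ, against 4, 4 and 2 in the control. The mean celA level in celAΔ was 0.160 times that in the control and not 0. The study attributes the remaining celA reads to probable leftover heterokaryons, which was not tested here. In direction, both genes followed the strain labels. Within the control, replicate 3 was the lowest in both, with celA at 15.3 RPKM, against 26.6 and 29.7 RPKM in replicates 1 and 2. Why celA was lower there was not tested. Among the 642 listed genes with a higher mean RPKM in celAΔ, control replicate 3 was the highest of the control libraries for 478. For 128 of these, or 19.9% of the 642, it lay at least 5-fold above the next control library. The corresponding numbers were 5 for control replicate 1 and 3 for control replicate 2. The cluster genes belong to the 128, and results that rest on control replicate 3 are therefore given with and without it.

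Relative to depth, every celAΔ library held more reads of each of the 4 cluster genes than any library of the control. They were abundant in the 3 celAΔ libraries, intermediate in control replicate 3 and nearly absent from control replicates 1 and 2. Their log2 FC (celAΔ over control) was between 1.89 and 3.18, with a median of 2.80, against a median of 1.89 over the 642 listed genes with a higher mean in celAΔ. In edgeR's quasi-likelihood test, with Benjamini-Hochberg adjustment over the listed genes, an adjusted p under 0.05 and an absolute log2 FC over 1, 2 of the 4 passed and 2 did not. Of all listed genes 41.1% passed in the direction of higher values in celAΔ and 52.5% in the other. With DESeq2, whose size factors scale to the listed genes, the numbers called were 613 higher and 346 lower, against 565 and 722 in edgeR. Every celAΔ library lay above every control library in 46.5% of all listed genes, so the separation of the 4 genes is common in this selected table. In mycelium analysed in bulk, a change in the number of cells that express the cluster and a change in RNA per cell cannot be told apart.

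**Figure D1:**
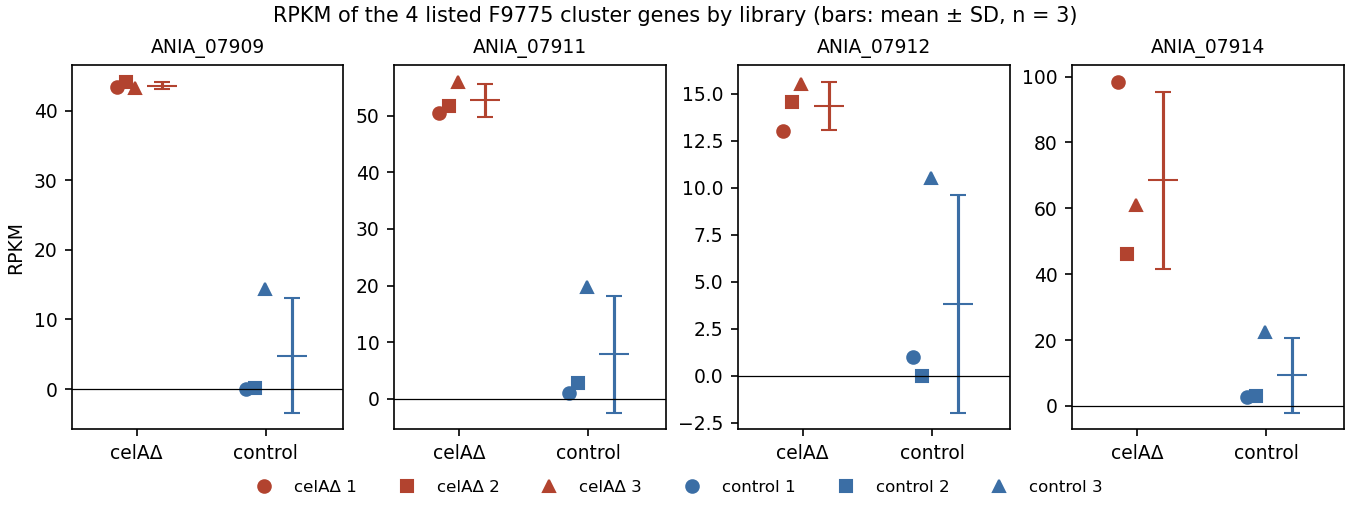
RPKM of each cluster gene (vertical axis, linear, a scale for each gene) in celAΔ and control libraries; symbols mark replicates 1 (circle), 2 (square) and 3 (triangle), and the bars give the mean ± SD of 3 libraries. For ANIA_07909 the celAΔ mean is 43.6 RPKM and control replicate 3 lies at 14.3 RPKM, between the celAΔ libraries and the other control libraries, as it does for each gene.

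The polyketide synthase gene ANIA_07909 had 1270, 1450 and 1141 unique reads in celAΔ replicates 1, 2 and 3, against 1, 2 and 326 in control replicates 1, 2 and 3. In RPKM these were 43.4, 44.1 and 43.3 in celAΔ, against 0.0427, 0.0960 and 14.3 in the control. The gene was thus at one level in the mutant and at very different levels in the control. The celAΔ libraries averaged 43.6 ± 0.469 RPKM and the control libraries 4.82 ± 8.23 RPKM (SD, n = 3 each). Its log2 FC of 3.18 is the highest of the 4, but its standard error of 1.68 is too, and it did not pass the test (edgeR, Benjamini-Hochberg adjusted p = 0.10).

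Between single libraries, the difference in ANIA_07909 could be bounded from the counts. celAΔ replicate 1 had 3.03 times the reads per mapped read of control replicate 3, with an exact 95% interval of 2.68 to 3.43. Against control replicate 2 the ratio was 452, with an interval of 125 to 3734, because only 2 reads stand behind the denominator. Within the control, replicate 3 exceeded replicate 2 by a factor of 149, with an interval of 41.0 to 1237. Such intervals cover counting error only, as reads from amplified libraries without molecular identifiers are not independent molecules. Without control replicate 3, ANIA_07909 passed the test, but the fold is then set by 3 reads and has no stable value.

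ANIA_07911 had 233, 268 and 233 reads in celAΔ, against 4, 9 and 71 reads in the control. The RPKM values were 50.4, 51.7 and 56.0 in celAΔ and 1.08, 2.74 and 19.8 in the control. The celAΔ libraries were close to one another, and control replicate 3 reached 37.5% of their mean. The log2 FC was 2.74 (standard error 0.89), which passed the test (edgeR, Benjamini-Hochberg adjusted p = 0.0206). The call was lost without control replicate 2 (edgeR, adjusted p = 0.0574) and without celAΔ replicate 1 (adjusted p = 0.0523, same test).

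ANIA_07912 was the least abundant gene of the cluster in celAΔ, with 67, 84 and 72 reads there and 4, 0 and 42 reads in control replicates 1, 2 and 3. This corresponds to 13.0, 14.5 and 15.5 RPKM in celAΔ, against 0.972, 0 and 10.5 RPKM in the control. It is the gene for which control replicate 3 came nearest to the mutant, at 73.0% of the celAΔ mean. The ratio of celAΔ replicate 1 to control replicate 3 was 1.24, with an exact interval of 0.831 to 1.87, so a difference between those libraries was not detectable at this depth. Against the 0 reads of control replicate 2, celAΔ replicate 1 was at least 15.9-fold higher when a floor of 3 reads in the control library is taken, and the exact 95% interval of that ratio starts lower, at 12.6. Over all libraries the log2 FC, 1.89 with a standard error of 0.99, did not pass (edgeR, Benjamini-Hochberg adjusted p = 0.0974). It passed without control replicate 3, with a log2 FC of 4.74.

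ANIA_07914 had 478, 252 and 267 reads in celAΔ and 10, 10 and 85 reads in the control. Its RPKM was 98.4, 46.2 and 61.1 in celAΔ, against 2.58, 2.89 and 22.5 in the control. Here the mutant libraries themselves were spread, with celAΔ replicate 1 at 2.13 times the level of celAΔ replicate 2 (exact interval 1.82 to 2.49). The log2 FC was 2.87 (standard error 0.85), which passed (edgeR, Benjamini-Hochberg adjusted p = 0.0155). Without celAΔ replicate 1 it was 2.52 and did not pass (adjusted p = 0.0520 from the same test), and without control replicate 3 it was 4.64.

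The number of cluster genes past the threshold therefore depended on single libraries. It was 4 without control replicate 3, where 45.4% of the listed genes passed as higher in celAΔ, 1 without control replicate 2, where 27.1% did, and 0 without celAΔ replicate 1 (edgeR, where 2 of the 4 had an unadjusted p under 0.05), where 31.1% did. In either direction, 1321, 992 and 1082 of the 1375 listed genes passed under these settings, in the same order. Most listed genes thus kept their call where the cluster genes lost theirs. The p-values of the listed genes were also adjusted as if all 10516 loci of the assembly had been tested. Unlisted loci have no p-value and were counted as having none smaller than the listed genes. With this adjustment 0 of the 4 passed and the adjusted p-values were from 0.118 to 0.769 (edgeR, Benjamini-Hochberg), although all 4 exceeded 1 in log2 FC. Under that setting 12.5% of listed genes passed as higher in celAΔ. In the main comparison, 2 of the 4 genes had an unadjusted p under 0.05, and DESeq2 called 2, where it called 44.6% of the listed genes as higher in celAΔ and 69.7% in either direction. All 4 passed with limma on log2(RPKM + 1), with limma on log2(RPKM + 0.1) and with limma voom. Under these settings 43.3, 46.1 and 46% of the listed genes passed as higher in celAΔ, and 89.8, 98.1 and 97.7% in either direction.

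**Figure D2:**
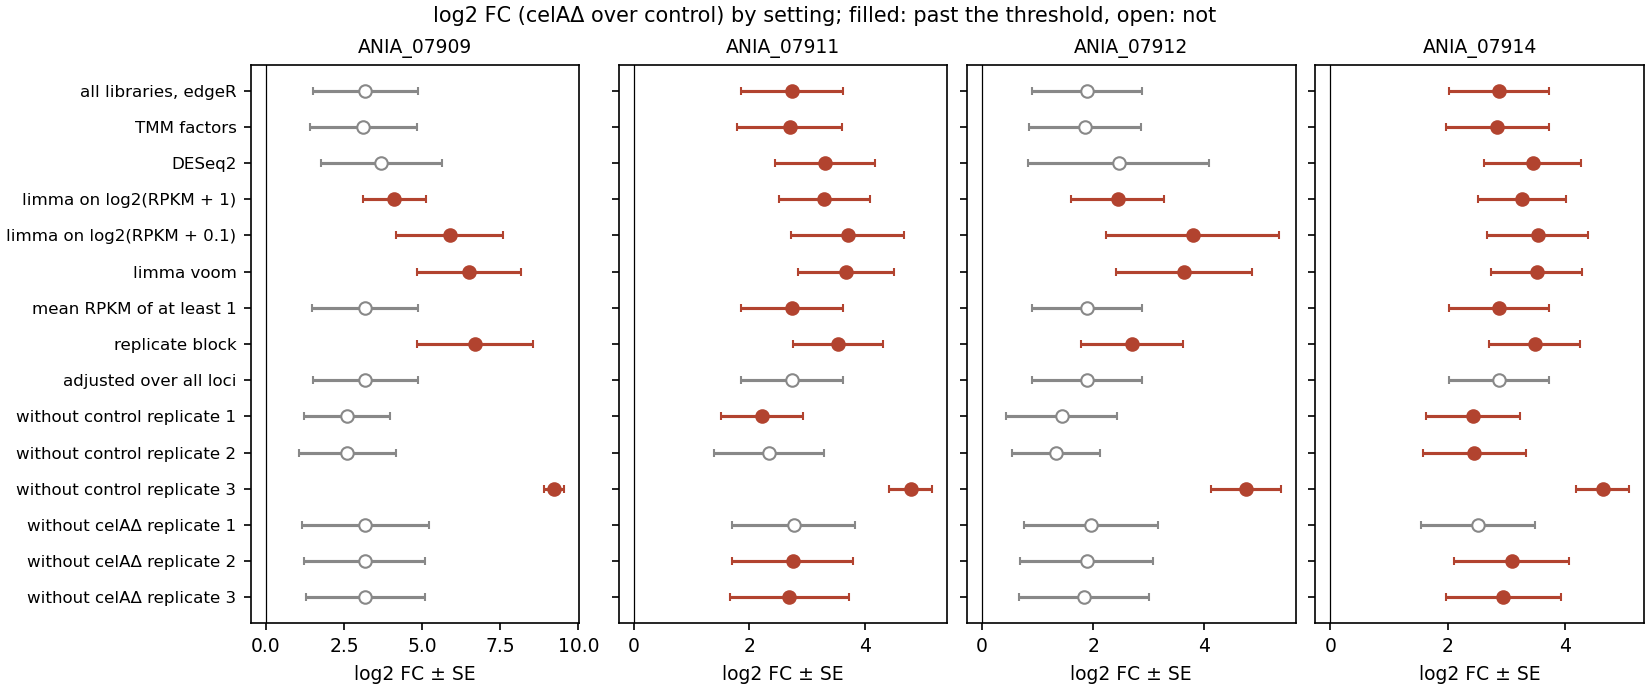
log2 FC of celAΔ over control (horizontal axis, bar: standard error) for each cluster gene under the main edgeR fit and 14 other settings; filled symbols passed the threshold and open symbols did not. Leaving out control replicate 3 gave the highest value for each gene, from 4.64 for ANIA_07914 to 9.23 for ANIA_07909, a fitted value that rests on 3 control reads.

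The coefficient of variation of RPKM over the 3 celAΔ libraries was 1.08% for ANIA_07909, 5.55% for ANIA_07911, 8.84% for ANIA_07912 and 39.2% for ANIA_07914. Counting alone would give about 2.79% for ANIA_07909, 6.39% for ANIA_07911, 11.6% for ANIA_07912 and 5.49% for ANIA_07914 at their mean read numbers. The coefficient lay below the counting value for the first 3 genes and above it for ANIA_07914, which describes 3 libraries and was not tested. Of 1334 listed genes with reads in celAΔ, 5 had a smaller coefficient of variation there than ANIA_07909. In the control all 4 were above 122%. The common biological coefficient of variation of the edgeR fit was 46.8%, over all listed genes and the 6 libraries of both strains. It leaves out counting error and draws on both strains, so it is not the control spread of the listed genes.

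Per length, the order of the mean levels in celAΔ was ANIA_07914 with 68.6 ± 26.9 RPKM, ANIA_07911 with 52.7 ± 2.93 RPKM, ANIA_07909 with 43.6 ± 0.469 RPKM and ANIA_07912 with 14.4 ± 1.27 RPKM (SD, n = 3 each). ANIA_07914 and ANIA_07911 did not differ beyond their spread and changed places in celAΔ replicate 2. ANIA_07911 lay above ANIA_07909 in each of the 3 celAΔ libraries, and ANIA_07912 was the lowest in each. In the control the means kept this order, with 9.33 ± 11.4 RPKM for ANIA_07914, 7.86 ± 10.3 RPKM for ANIA_07911, 4.82 ± 8.23 RPKM for ANIA_07909 and 3.82 ± 5.80 RPKM for ANIA_07912 (SD, n = 3 each). These control means do not differ beyond their spread, and the order rests on control replicate 3. Over control replicates 1 and 2 alone the means were 2.74 RPKM for ANIA_07914, 1.91 RPKM for ANIA_07911, 0.486 RPKM for ANIA_07912 and 0.0694 RPKM for ANIA_07909, with the polyketide synthase gene last. All 4 were below the median of the control means over listed genes, 23.7 RPKM, whereas in celAΔ only ANIA_07912 lay below the corresponding median of 19.2 RPKM.

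The genes were next compared with one another inside each library, where depth cancels. Together they had 2048, 2054 and 1713 unique reads in celAΔ replicates 1, 2 and 3, against 19, 21 and 524 reads in control replicates 1, 2 and 3. Per 1000000 mapped reads this was 441, 395 and 410 in celAΔ, against 5.13, 6.36 and 145 in the control. The polyketide synthase ANIA_07909 took 62.0, 70.6 and 66.6% of the cluster's reads in celAΔ, close to the 66.7% that it holds of their summed length. In control replicate 3 it took 62.2% (exact 95% interval 57.9 to 66.4%), within the range of the mutant libraries.

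In control replicates 1 and 2 the cluster's few reads were divided otherwise. ANIA_07909 held 1 of 19 reads in replicate 1, or 5.26% (exact interval 0.133 to 26.0%), and 2 of 21 in replicate 2, or 9.52% (1.17 to 30.4%). ANIA_07914, a shorter gene at the far end of the cluster, held 10 reads in each of these libraries. At the RPKM of ANIA_07914, 60.3 reads would have fallen on ANIA_07909 in either library. In control replicate 1, where ANIA_07909 had the single read, 1 read is worth 0.0427 RPKM on that gene, against 0.258 RPKM on ANIA_07914.

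ANIA_07912 was the gene whose share in control replicate 3 lay outside the range of the mutant libraries. It took 3.27, 4.09 and 4.20% of the cluster's reads in celAΔ replicates 1, 2 and 3, against 8.02% in control replicate 3 (exact interval 5.84 to 10.7%). The interval of the highest of these mutant shares, 3.30 to 5.26%, does not reach that of control replicate 3. As this concerns a single control library, it has no replicate check. ANIA_07914 took 23.3% in celAΔ replicate 1 (exact interval 21.5 to 25.2%) and 12.3 and 15.6% in celAΔ replicates 2 and 3. In control replicate 3 it took 16.2% (13.2 to 19.7%), apart from celAΔ replicate 1. ANIA_07909 took 70.6% in celAΔ replicate 2 (68.6 to 72.6%), also apart from its interval in control replicate 3. In these genes the mutant libraries differed from one another beyond counting error too.

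**Figure D3:**
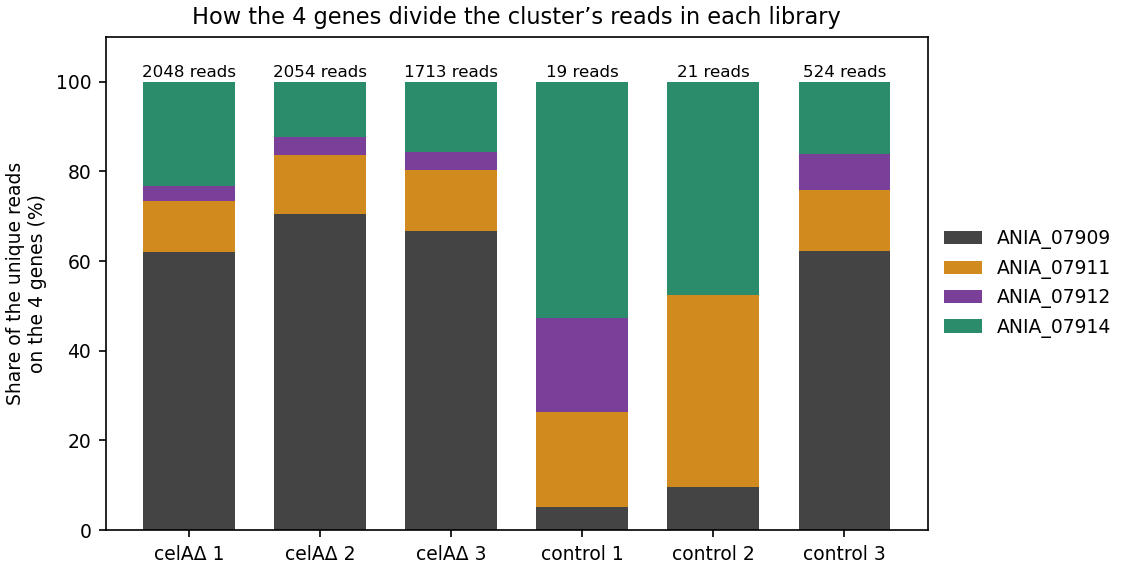
Share of the unique reads on the 4 cluster genes (vertical axis, %) taken by each gene in each library, with the number of reads above the bar. ANIA_07909 takes 62.0 to 70.6% in the celAΔ libraries and 62.2% in control replicate 3, but 5.26 and 9.52% of the 19 and 21 reads in control replicates 1 and 2.

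For each of the 6 pairs of genes, the log2 ratio of (reads + 0.5) per base was compared between the strains by an exact two-sided permutation test over the 6 libraries, which cannot give a p below 0.1. The ratio of ANIA_07909 to ANIA_07911 averaged -0.27 ± 0.09 in celAΔ and -3.10 ± 2.28 in the control (SD, n = 3 each), a difference of 2.83 (exact p = 0.1, adjusted p = 0.3 over the 6 pairs). For ANIA_07909 over ANIA_07912 the difference was 2.88 (exact p = 0.1, adjusted p = 0.3), and for ANIA_07909 over ANIA_07914 it was 2.99 (exact p = 0.2, adjusted p = 0.4). The pairs without ANIA_07909 differed by 0.05 to 0.16 (exact p = 0.6 to 1, adjusted p = 0.9 to 1), and the control libraries spread over 1.08 to 4.25 on that scale. No pair passed, and a design of 3 against 3 does not allow it. Without control replicate 3 the differences were 4.14 for ANIA_07909 over ANIA_07911, 3.74 over ANIA_07912 and 4.45 over ANIA_07914.

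**Figure D4:**
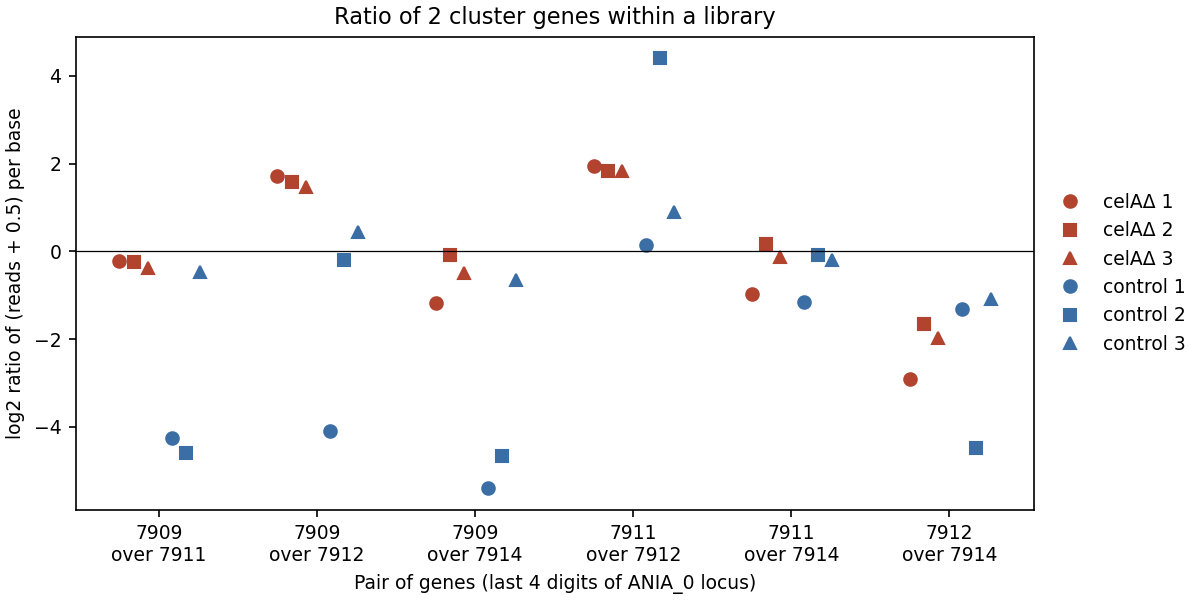
log2 ratio of (reads + 0.5) per base of 2 cluster genes within a library (vertical axis) for the 6 pairs, labelled by the last digits of the locus, with celAΔ libraries to the left of control libraries. The celAΔ ratio of ANIA_07909 to ANIA_07911 stays between -0.37 and -0.22, and control replicate 3, at -0.47, lies near it, while control replicates 1 and 2 lie at -4.25 and -4.59.

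The cluster was then placed among its neighbours in the gene order of the assembly. Among the 15 loci before ANIA_07909, 5 are listed, and all 5 passed the test, 4 higher and 1 lower in celAΔ. Among the 15 loci after ANIA_07914, 0 are listed. Of all 10516 loci of the assembly 13% are listed, and 93.6% of listed genes passed in either direction. An unlisted locus has no value here, so nothing can be said of its level.

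The next gene before the cluster, ANIA_07908, annotated as an arabinoxylan arabinofuranohydrolase, an enzyme that trims a plant cell wall polysaccharide, went the other way. It had 2, 2 and 1 reads in celAΔ, against 7, 12 and 6 reads in the control, and it passed the test as lower (edgeR, Benjamini-Hochberg adjusted p = 0.00435). Summed over the libraries of a strain, its reads per mapped read in celAΔ were 0.151 times those in the control, with an exact interval of 0.0453 to 0.403. One gene further away, ANIA_07907, a conserved hypothetical protein, had 163, 384 and 312 reads in celAΔ, against 56, 35 and 72 reads in the control, with a log2 FC of 2.00 (standard error 0.41; edgeR, Benjamini-Hochberg adjusted p = 0.00525). Its control libraries, at 30.9, 21.7 and 40.8 RPKM, stood nearer to one another than those of the cluster genes.

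The loci ANIA_07893 to ANIA_07903 are the range of the neighbouring dba cluster, another polyketide cluster of A. nidulans. Of these 11 loci 3 are listed, and all 3 passed as higher in celAΔ. ANIA_07893, a conserved hypothetical protein, had 102, 178 and 159 reads in celAΔ, against 4, 0 and 4 reads in the control (log2 FC 5.34, standard error 0.64). ANIA_07897, a FAD binding domain protein, had 71, 77 and 76 reads in celAΔ, against 10, 10 and 16 in the control (log2 FC 2.24, standard error 0.32).

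ANIA_07902, a conserved hypothetical protein, had 69, 124 and 92 reads in celAΔ, against 4, 2 and 9 in the control (log2 FC 3.82, standard error 0.49). ANIA_11584, a hypothetical protein between ANIA_07897 and ANIA_07902 in gene order, had 13, 39 and 35 reads in celAΔ, against 1, 2 and 0 in the control. Its summed reads per mapped read in celAΔ were 22.0 times those in the control, with an exact interval of 7.27 to 109. In these 4 genes control replicate 3 held 0 to 16 reads, beside 0 to 10 reads in control replicates 1 and 2. The 6 listed neighbours passed in each of the 14 other settings tried.

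**Figure D5:**
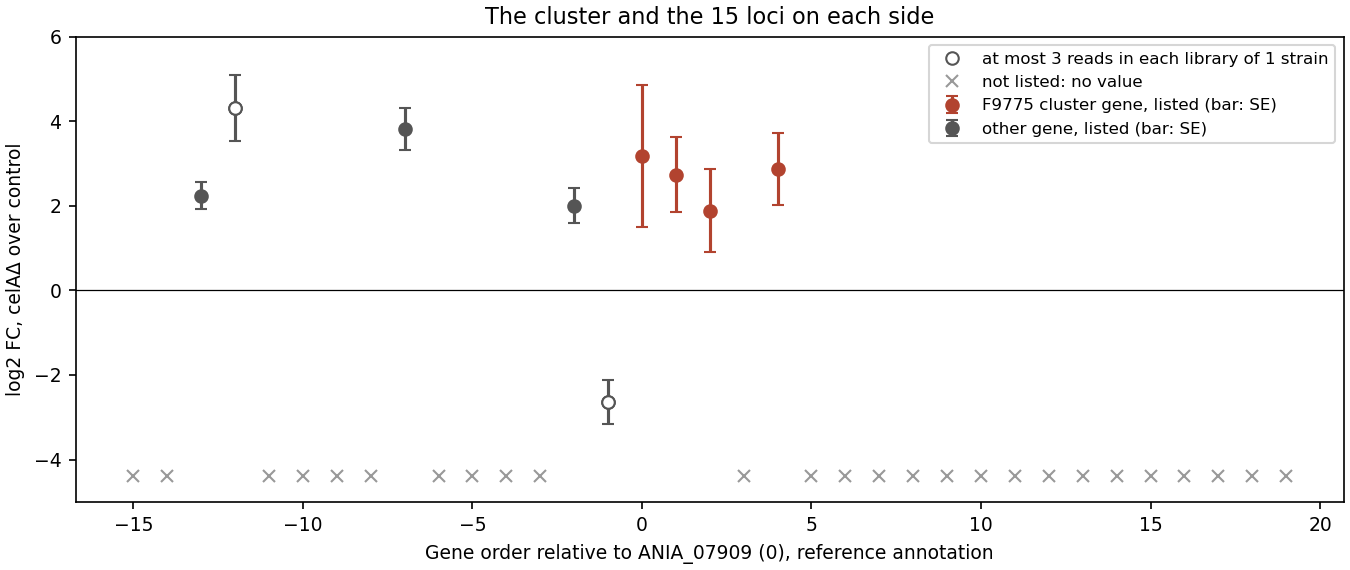
log2 FC of celAΔ over control (vertical axis, bar: standard error) by gene order relative to ANIA_07909, at 0; filled symbols are cluster genes and other listed genes, open circles are genes with at most 3 reads in each library of 1 strain, and crosses mark unlisted loci without a value. ANIA_07908, next to the polyketide synthase gene, is the only listed locus below 0, and the 15 loci after ANIA_07914 are unlisted.

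In all, 4 listed genes are annotated as a polyketide synthase, ANIA_07909 among them, and each was higher in every celAΔ library than in any control library. The other 3 passed the test. Such a separation held for 46.5% of all listed genes, and 41.1% passed as higher and 93.6% in either direction. The pattern is thus common in this selected table. ANIA_07825, the sterigmatocystin polyketide synthase, had 598 ± 160 RPKM in celAΔ and 74.4 ± 22.6 RPKM in the control. ANIA_06000 had 9.38 ± 0.940 RPKM in celAΔ and 2.21 ± 0.741 RPKM in the control. ANIA_03230 had 7.43 ± 0.746 RPKM in celAΔ and 3.07 ± 2.23 RPKM in the control (SD, n = 3 each).

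The polyketide synthase genes differed in control replicate 3. It exceeded the next control library by a factor of 149 in ANIA_07909, 3.14 in ANIA_03230 and 1.53 in ANIA_07825, and in ANIA_06000 it lay at 0.993 times the next. By this ratio ANIA_07909 ranked 5 among the 642 genes with a higher mean in celAΔ, with genes without reads in both other control libraries left out. ANIA_07912, ANIA_07914 and ANIA_07911 ranked 53, 76 and 85.

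A list of 13 regulators known to bear on secondary metabolite clusters of A. nidulans held laeA, veA, velB, gcnE, adaB, cclA, csnE, basR, mcrA, rpdA, hdaA, hepA and clrD. Of their loci 12 are in the assembly's gene table and 1 is in the deposited table. The gene fhbB, which the study also counts among such regulators, was not on the list and is given no value here. The listed gene is laeA, a putative methyltransferase needed for the expression of many such clusters. It had 1938, 1723 and 1401 reads in celAΔ, against 465, 466 and 596 in the control, a log2 FC of 1.33 (standard error 0.31; edgeR, Benjamini-Hochberg adjusted p = 0.00745). The control libraries of laeA lay close together, unlike those of the F9775 genes.

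The most similar profiles over the 6 libraries were sought among the listed genes outside the cluster, by the root mean square difference of log2(RPKM + 1), centred on each gene's mean, from the mean profile of the 4 cluster genes. The 10 closest genes were, in this order, ANIA_08636, a putative Zn(II)2Cys6 transcription factor, ANIA_10634, annotated as an RNA12 protein, the conserved hypothetical proteins ANIA_05764, ANIA_10250, ANIA_03024 and ANIA_05339, the mitochondrial carrier protein ANIA_01269, the mitochondrial integral membrane protein ANIA_00294, and the hypothetical proteins ANIA_00468 and ANIA_00467. Their differences from the mean profile were 0.13 to 0.29. ANIA_08636 had 8036, 7367 and 6451 reads in celAΔ, against 267, 213 and 1971 reads in the control, so that control replicate 3 reached 34.9% of the celAΔ mean in RPKM.

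By this measure, taken with log2(RPKM + 1) only, the cluster genes themselves were not the closest to one another. They held 0 to 10 reads in control replicates 1 and 2, against 10 to 2150 for the 10 closest genes. Counting error at so few reads adds to the distances of the cluster genes, and its part in their ranks was not tested. ANIA_07911 lay 0.26 from the mean profile, which would place it 7 if the cluster genes were counted, ANIA_07914 0.30, ANIA_07909 0.49 and ANIA_07912 0.52. Seen from ANIA_07914, ANIA_07911 ranked 13 of 1374 genes, and seen from ANIA_07912, ANIA_07909 ranked 249. The choice of the 10 genes rests on the pseudocount, since with log2(RPKM + 0.1) 0 of the 10 were retained.

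A mycelial culture can also hold conidia and conidiophores. Of 18 genes of these cell types 4 are listed, which the study named from these libraries. They are flbD, a transcription factor that acts in forming conidiophores, and ANIA_05086, ANIA_10628 and ANIA_05015, annotated as conidium-specific, SpoC-like and conidiation-specific proteins. Of the 4, 1 passed the test (ANIA_05086), where 41.1% of all listed genes passed as higher in celAΔ and 93.6% in either direction. All 4 passed as higher without control replicate 3, with limma at either pseudocount, with limma voom and with the replicate block. With adjustment over all loci 0 passed (edgeR, where 1 had an unadjusted p under 0.05), and DESeq2 called 2 over the listed genes. Without control replicate 3, 45.4% of all listed genes passed as higher. The shares were 43.3, 46.1 and 46% in the limma settings, 44.6% in DESeq2 and 12.5% with adjustment over all loci. With the replicate block 600 of the 1375 passed as higher. The study named these 4 as higher in these libraries, so their passing is not independent evidence. Their summed level was 1623 to 3389 RPKM in celAΔ, against 41.0, 40.7 and 1247 RPKM in control replicates 1, 2 and 3. Most of the sum in celAΔ and in control replicate 3 came from ANIA_05015, a gene of 249 bases. It had 1128, 1731 and 2529 RPKM in celAΔ and 943 RPKM in control replicate 3. In control replicates 1 and 2 most came from flbD, with 33.1 and 30.1 RPKM, against 159 RPKM in control replicate 3. Each of the 4 was highest in replicate 3 among the control libraries. In celAΔ, replicate 1 was the lowest in the summed markers and the highest in the summed cluster RPKM. The cluster sum was 205 RPKM there, against 157 and 176 RPKM in replicates 2 and 3. That order follows ANIA_07914, with 98.4, 46.2 and 61.1 RPKM in replicates 1, 2 and 3. ANIA_07911 and ANIA_07912 were lowest in replicate 1, as the summed markers were, and ANIA_07909 was nearly level. Among the listed markers, flbD was highest in replicate 1. The other 14 markers, brlA, abaA and wetA among them, are unlisted and have no value here. The part of these cells in the level of the cluster genes was not tested.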

How the data were processed

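Mycelial polyA RNA of 3 celAΔ and 3 control cultures was sequenced by the authors, who trimmed the reads and used CLC Genomics Workbench to map them, with at most 3 hits per read, on the transcriptome of strain FGSC A4. The authors deposited, per library, unique gene reads, which are raw counts, and RPKM, together with their mean RPKM per strain, gene length and the p-value of their own test, which was not used. Mapped totals were derived from reads, length and RPKM. They equal those of the study's mapping sheet, where control and celAΔ have exchanged names in replicate 2. The members of the cluster and all lists were chosen with earlier results of these data known.

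Counts of all 1375 genes were fitted in edgeR 4.0.16 (R 4.3.3) with its two-sided quasi-likelihood test. Library sizes were the mapped totals without further scaling, and the prior count was 0.125. Benjamini-Hochberg adjustment covered the 1375 genes. A standard error is the size of the log2 FC divided by the root of its F statistic. Exact intervals are Clopper-Pearson at 95%, and cover counting error only. The replicates are labelled as biological. The test was run on simulated counts with the same spread for all genes and no library set apart. That check does not cover a control library that stands apart, as replicate 3 does here. Alternatives were TMM factors, DESeq2 1.42.0, limma 3.58.1 on log2(RPKM + 1) or log2(RPKM + 0.1), limma voom, a mean RPKM of at least 1, the replicate number as a block, adjustment over all loci and each library left out. Control and celAΔ libraries of the same number come from separate cultures and were not treated as pairs.

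Genes were named by rule: the members, celA and argB, the listed loci within 15 genes or in the dba range, the 10 closest profiles, listed polyketide synthases and listed regulators and markers. Gene order came from ASM1142v1, in which 1372 identifiers were found, without coordinates, because the study mapped to another annotation. The spread within celAΔ was described after the values had been seen. Python 3.11.15 with scipy 1.17.1 was used for exact tests and intervals.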

Additional observations from a re-analysis of the deposited data

How the results depend on the processing

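With all libraries and the listed genes, 2 of the 4 F9775 genes passed in edgeR. All 4 passed with limma on log2(RPKM + 1), limma on log2(RPKM + 0.1) and limma voom, with log2 FC of 4.10, 5.89 and 6.50 for ANIA_07909 and 2.44, 3.79 and 3.63 for ANIA_07912, while 1235, 1349 and 1344 of the listed genes passed. Adjusted over all loci, 0 of the 4 passed, at the same log2 FC of 2.74 for ANIA_07911 and 2.87 for ANIA_07914, and 524 of the listed genes passed in place of 1287. With the replicate block 4 passed, at a log2 FC of 6.69 for ANIA_07909 and 2.70 for ANIA_07912, and 1258 listed genes. The numbers do not mark pairs: after removal of each strain's mean, libraries of the same number correlated at 0.138, -0.145 and 0.084.

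When each library was left out in turn, 0 to 4 cluster genes and 992 to 1321 listed genes passed. The log2 FC was 2.59 to 9.23 for ANIA_07909, 2.22 to 4.79 for ANIA_07911, 1.33 to 4.74 for ANIA_07912 and 2.42 to 4.64 for ANIA_07914, each highest without control replicate 3. The pair differences kept their sign for ANIA_07909 over ANIA_07911 (2.09 to 4.14), ANIA_07912 (1.47 to 3.74) and ANIA_07914 (2.08 to 4.45). They reversed for ANIA_07911 over ANIA_07912 with RPKM + 0.1 (-0.088) and without single libraries (-0.78 to 1.34), for ANIA_07911 over ANIA_07914 without single libraries (-0.18 to 0.49), and for ANIA_07912 over ANIA_07914 with 1 read added (-0.22) and without single libraries (-0.98 to 0.71). Of the 10 closest genes, 0 were shared with a pseudocount of 0.1.

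DESeq2's size factors put the median log2 FC of all listed genes at -0.36, against -1.04 in edgeR, and the 4 cluster genes were higher in celAΔ under either scaling. No cause of these differences was tested. Depth limits the levels in control replicates 1 and 2, where ANIA_07909 and ANIA_07912 had 0 to 4 reads and ANIA_07911 and ANIA_07914 4 to 10.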
